A study of Homo sapiens with 11 samples.

Results

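The sensors and effectors of the unfolded protein response were followed through chromatin immunoprecipitation sequencing (ChIP-seq) of pancreatic cancer cells, as 10 genes out of 20033 protein-coding genes in the RefSeq table. They were ERN1, ERN2, EIF2AK3, ATF6 and ATF6B, which encode stress sensors in the membrane of the endoplasmic reticulum (ER), and XBP1, ATF4, DDIT3, PPP1R15A and CREB3L1, which encode factors that carry the response out. A peak was assigned to a gene when its summit lay in the gene's GRCh38 span extended by 50 kb on each side. All 10 genes had an entry in the table, and all 10 had enough H3K27ac coverage to enter the test described further on. Their windows also held between 1 and 7 other coding genes each, so a peak in a window may belong to a neighbour, and genes with overlapping windows share peaks.

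The unfolded protein response adjusts the folding capacity of the ER to the load of new secretory proteins, which is high in secretory epithelia. IRE1 (ERN1) splices the XBP1 messenger RNA into the form that encodes an active transcription factor, PERK (EIF2AK3) phosphorylates eIF2alpha and so favours translation of ATF4, and ATF6 travels to the Golgi, where proteases free its DNA-binding part. ATF4 activates DDIT3 (CHOP) and PPP1R15A (GADD34), and GADD34 recruits a phosphatase to eIF2alpha and thereby closes the loop. MYRF is itself anchored in the ER membrane and frees its own DNA-binding part by self-cleavage. The study's title links it to ER homeostasis, and the comparisons here ask whether MYRF or FOS sat near these genes and whether their histone acetylation differed without MYRF.

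Both cell lines, CFPAC1 and HPAF2, come from pancreatic ductal adenocarcinoma. MYRF was mapped with an antibody made by the submitters in unmodified CFPAC1 cells, grown in IMDM, and unmodified HPAF2 cells, grown in RPMI. H3K27ac, an acetylated form of histone H3 found at active promoters and enhancers, was mapped in a CFPAC1 MYRF knockout clone, which carried wild-type Cas9 with a guide against MYRF, and in a CFPAC1 control clone. FOS, which pairs with JUN proteins to form AP-1, was mapped in the control clone. Both clones were isolated by dilution after infection with lentiCRISPRv2, so each genotype is 1 clone and the genotype cannot be told apart from the clone. Each of the 5 groups held 2 libraries, and nothing in the labels says whether the libraries of a group came from separate cultures, so the spread between them may be technical.

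The deposited files were peak lists without reads, so depth is unknown and the edit at MYRF could not be checked. MYRF lists held 4041 to 4743 peaks in CFPAC1 and 3702 to 4326 in HPAF2, and FOS lists held 29087 and 36349. H3K27ac peaks covered 87.9 and 92.9 Mb in the knockout clone, against 100.5 and 95.2 Mb in the control clone. All 5 epithelial markers examined (EPCAM, CDH1, KRT8, KRT18 and KRT19) had H3K27ac within 1 kb of a gene end in all 4 H3K27ac libraries. Of 4 fibroblast markers, 1 and 3 did so in the knockout clone, against 1 and 1 in the control clone. Of 4 leukocyte markers, 2 did so in every library. Of 4 acinar markers, 1 and 1 did so in the knockout clone, against 1 and 2 in the control clone.

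MYRF peaks were found near 4 of the 10 genes, namely ERN2, ATF4, DDIT3 and CREB3L1, and at ERN2 alone did all 4 MYRF libraries share a site. ERN2, the IRE1 relative of mucus-secreting gut and airway epithelia, was the only sensor gene with a MYRF peak. No MYRF library had a peak in the windows of ERN1, EIF2AK3, ATF6, ATF6B, XBP1 or PPP1R15A. In CFPAC1, 2 of 10 genes (ERN2 and ATF4) had a MYRF peak in both libraries, a share of 20.0% beside 18.5% of all coding genes. In HPAF2, 3 of 10 genes (ERN2, DDIT3 and CREB3L1) did, a share of 30.0% beside 17.6%. In both libraries of both lines, 1 of 10 genes did, beside 10.7%, so these shares were near the background and no result is read from the counts.

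**Figure D1:**
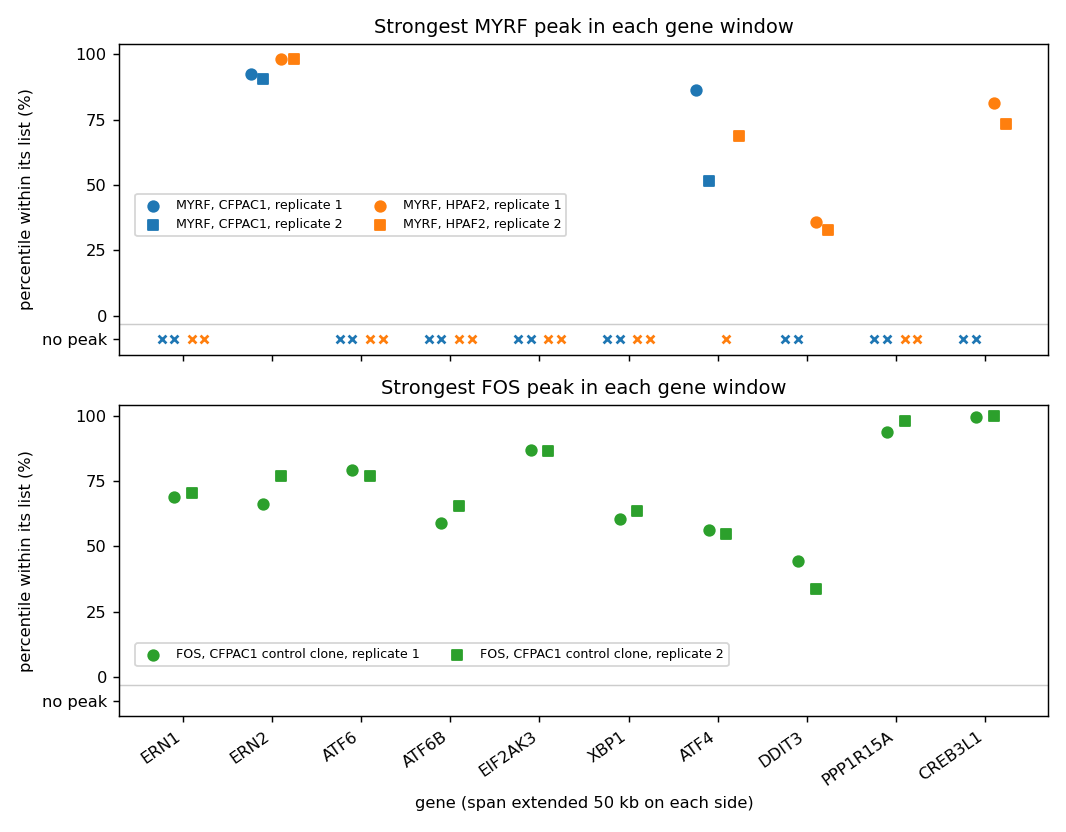
Within-list percentile of the strongest MYRF peak (upper panel) and FOS peak (lower panel) in the window of each gene, with 1 point per library and a cross where a library had no peak. The 4 MYRF points of ERN2 lie between the 90.6 and 98.4 percentiles, 6 genes have no MYRF peak, and all 10 genes have a FOS peak in both libraries.

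The MYRF site of ERN2 lay inside the gene, with summits about 1.3 kb from the end of higher coordinate, on chromosome 16 from 23711610 to 23712367 (GRCh38, merged over the 4 libraries). Fold enrichment at the summit, the authors' ratio over local background, was 12.5 and 11.6 in CFPAC1, and these values stood at the 92.7 and 90.6 percentiles of their lists. In HPAF2 the folds were 29.8 and 31.0, at the 98.4 and 98.3 percentiles. All 4 values thus ranked high in their lists, and no comparison of folds between lines was made because each list is scaled to its own background. The 4 summits fell between positions 23711877 and 23711917. No FOS peak overlapped the site, and the nearest FOS summits lay 41663 and 15959 bp away. H3K27ac peaks covered 662 and 959 of the 2000 bp around it in the knockout clone, against 697 and 1346 bp in the control clone, and the clones overlapped.

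CREB3L1 encodes OASIS, an ER-membrane transcription factor related to ATF6 that is freed by the same pair of proteases. Its MYRF site lay 3909 bp upstream of the 5' end of the gene, on chromosome 11 from 46273455 to 46274150. It had folds of 8.36 and 7.20 in HPAF2, at the 81.3 and 73.4 percentiles, and no MYRF peak in either CFPAC1 library. In CFPAC1 clones the 2000 bp around this site carried 2000 and 1565 bp of H3K27ac in the knockout clone, against 1596 and 2000 bp in the control clone. Acetylation there was thus present in all 4 CFPAC1 libraries, and the clones overlapped. In the CFPAC1 control clone a FOS peak of replicate 1 overlapped this HPAF2 MYRF site, with a fold of 3.33 at the 6.90 percentile. The nearest FOS peak of replicate 2, with a fold of 5.85 at the 57.8 percentile, did not overlap it. The FOS summits lay 419 and 655 bp away. Since the lines differ, shared occupancy in the same cells was not tested.

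At ATF4 and DDIT3 the replicates of a line did not share a MYRF site. ATF4 encodes the transcription factor at the centre of the PERK arm, and the MYRF site at its start spanned 39520217 to 39520575 on chromosome 22, with the middle of the summits 128 bp upstream. This site had a fold of 9.03 in CFPAC1 replicate 1, at the 86.3 percentile, and 6.72 in HPAF2 replicate 2, at the 68.7 percentile, and it was not called in the other replicate of either line. FOS peaks of both FOS libraries overlapped this merged site, and the nearest FOS summits were 460 and 618 bp away. The overlapping FOS peak of replicate 1 ended at 39520249, before the HPAF2 MYRF peak began at 39520326. H3K27ac covered all 2000 bp around the site in both clones. The MYRF peak of CFPAC1 replicate 2 lay 48771 bp upstream, inside MGAT3, with a fold of 5.40. DDIT3, the gene for the pro-apoptotic factor CHOP, had MYRF peaks in HPAF2 only, all with low folds. In HPAF2 replicate 1 these were a peak of 4.15 over the start (summit 34 bp into the gene) and a peak of 4.69 inside MARS1. In HPAF2 replicate 2 there was a peak of 4.63 inside MBD6, 1746 bp upstream of DDIT3. The peak over the start overlapped FOS peaks of both FOS libraries. These came from the CFPAC1 control clone, and no CFPAC1 MYRF library had a peak in this window. The overlap is thus between different lines, and shared occupancy in the same cells was not tested. When the same site was required in both libraries, an alternative chosen after seeing the data, ERN2 remained in CFPAC1, and ERN2 and CREB3L1 remained in HPAF2.

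**Figure D2:**
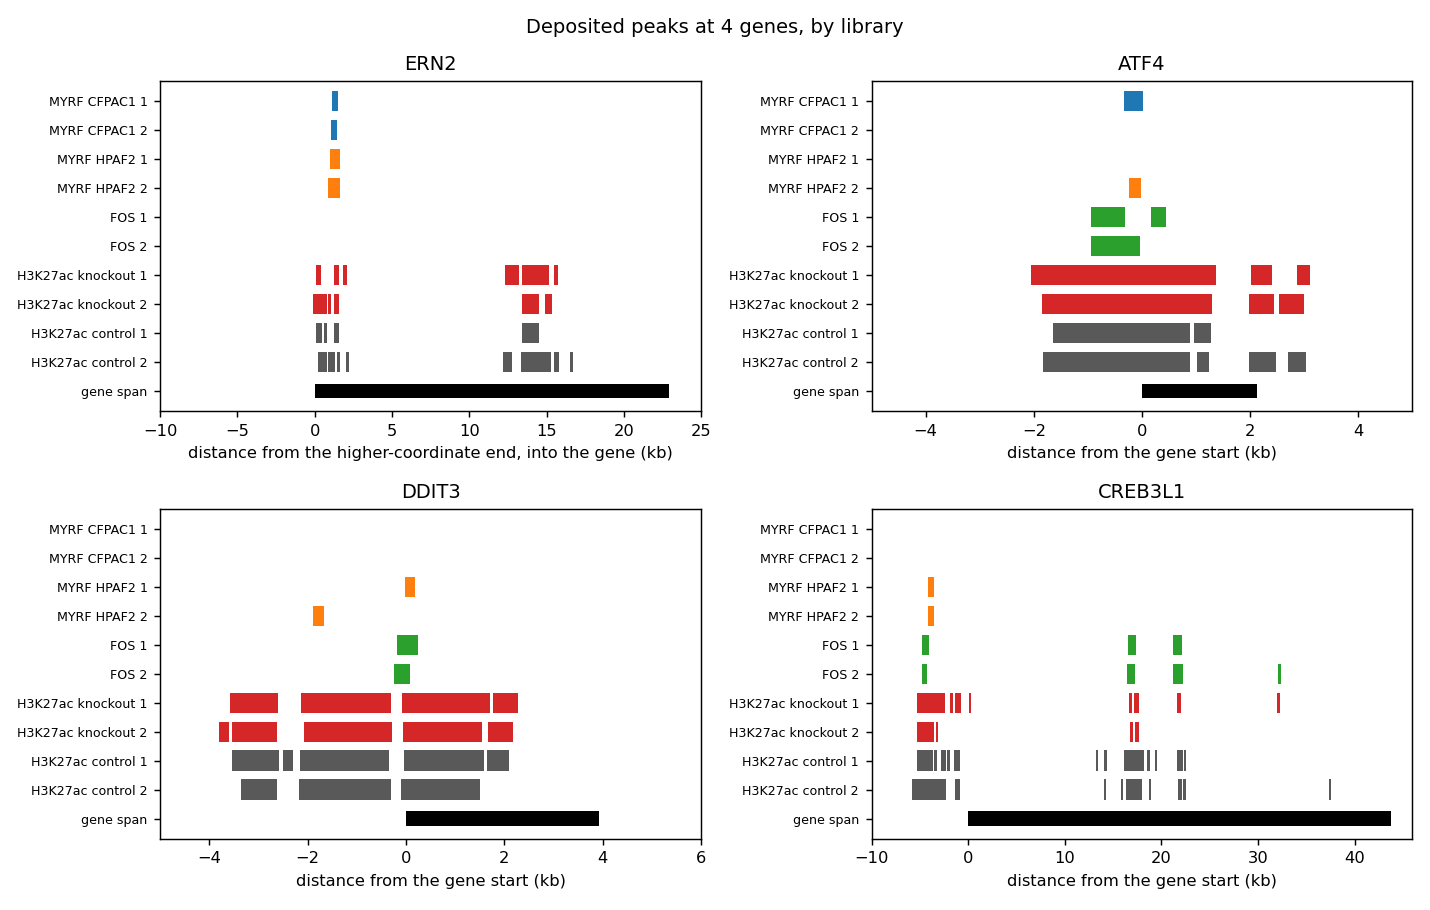
Peak intervals by library at ERN2, ATF4, DDIT3 and CREB3L1, with distance in kb on the x axis and 1 row per library, numbered by replicate. ERN2 has MYRF peaks in all 4 MYRF libraries and no FOS peak in the stretch shown, and inside CREB3L1 H3K27ac peaks cover 1611 and 714 bp in the knockout rows, against 3966 and 3183 bp in the control rows.

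The promoters of ATF4, DDIT3, PPP1R15A, XBP1 and CREB3L1 are shown as the 250 bases upstream of the RefSeq start (GRCh38.p14), read 5' to 3' on the strand of the gene, because factor peaks lay over 4 of them and a stress-response motif was found in XBP1. Capitals mark a motif match.
ATF4: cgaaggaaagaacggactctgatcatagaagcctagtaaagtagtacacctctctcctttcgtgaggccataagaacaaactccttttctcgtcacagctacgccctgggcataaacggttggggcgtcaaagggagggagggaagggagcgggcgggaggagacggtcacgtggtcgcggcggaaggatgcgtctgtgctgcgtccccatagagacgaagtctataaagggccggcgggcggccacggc
DDIT3: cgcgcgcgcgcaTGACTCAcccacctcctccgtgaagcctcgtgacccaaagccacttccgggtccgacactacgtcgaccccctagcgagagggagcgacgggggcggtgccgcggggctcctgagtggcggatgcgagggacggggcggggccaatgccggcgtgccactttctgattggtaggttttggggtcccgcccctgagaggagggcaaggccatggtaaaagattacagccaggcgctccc
PPP1R15A: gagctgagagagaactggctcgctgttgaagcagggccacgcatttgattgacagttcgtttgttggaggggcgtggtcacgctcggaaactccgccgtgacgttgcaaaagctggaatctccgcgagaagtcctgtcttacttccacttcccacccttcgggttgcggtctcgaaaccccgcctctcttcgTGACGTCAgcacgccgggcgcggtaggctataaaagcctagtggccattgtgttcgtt
XBP1: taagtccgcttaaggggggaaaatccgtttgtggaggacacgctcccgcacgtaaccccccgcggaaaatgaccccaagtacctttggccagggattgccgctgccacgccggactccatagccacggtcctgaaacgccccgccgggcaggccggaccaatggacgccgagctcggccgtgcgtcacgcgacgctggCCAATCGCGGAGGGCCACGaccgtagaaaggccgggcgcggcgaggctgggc
CREB3L1: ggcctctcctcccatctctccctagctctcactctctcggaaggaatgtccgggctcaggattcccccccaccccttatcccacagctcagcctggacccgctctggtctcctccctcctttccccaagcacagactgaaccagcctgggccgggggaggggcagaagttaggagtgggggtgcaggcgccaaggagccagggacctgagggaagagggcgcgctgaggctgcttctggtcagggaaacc
The ATF4 sequence runs from 39520309 to 39520558 on chromosome 22, plus strand. The MYRF peak of CFPAC1 replicate 1 covered all 250 bases, that of HPAF2 replicate 2 covered 215, and a FOS peak of replicate 2 covered 206. The DDIT3 sequence runs from 57520518 to 57520767 on chromosome 12, minus strand. FOS peaks covered 190 and 247 of its bases, and the MYRF peak of HPAF2 replicate 1 covered 21. The PPP1R15A sequence runs from 48872171 to 48872420 on chromosome 19, plus strand, and a FOS peak of replicate 1 covered 98 bases. The XBP1 sequence runs from 28800570 to 28800819 on chromosome 22, minus strand, and held no MYRF or FOS peak. The CREB3L1 sequence runs from 46294909 to 46295158 on chromosome 11, plus strand, upstream of a RefSeq start that lies 17497 bp inside the gene span, and FOS peaks covered 87 and 37 of its bases.

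Motifs were searched on both strands in the same 250 bases of 15842 coding genes, 9 of the 10 genes among them (ERN2 had no entry). The ER stress response element, CCAAT and CCACG separated by 9 bases, which ATF6 binds together with NF-Y, occurred in 0.114% of promoters and in XBP1, at 52 to 34 bases before the start. The AP-1 motif TGANTCA occurred in 5.0% of promoters and in DDIT3 and ATF6B, and in DDIT3 it lay inside the FOS peak of replicate 2 and outside that of replicate 1, 170 and 167 bp from their summits. In ATF6B the nearest FOS summits were 46783 and 25066 bp away. The cyclic AMP response element TGACGTCA occurred in 2.29% of promoters and in PPP1R15A, inside a FOS peak of replicate 1, 265 bp from its summit, and outside any FOS peak of replicate 2, whose nearest summit was 902 bp away. The core of the unfolded protein response element, TGACGTGG, occurred in 0.707% of promoters, and the second ER stress element, ATTGGNCCACG, in 0.0757%. The C/EBP-ATF composite TGATGNAA occurred in 2.2%, and the MYRF motif as CTGGCAC or CTGGTAC in 4.27% and 1.16%. These last 5 patterns matched none of the 9 promoters. A match is a description of letters in the window and not a binding site.

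FOS peaks were present near all 10 genes in both libraries, beside 68.7% of all coding genes. They merged into 44 sites, of which 31 were called in both libraries and 13 in 1. The 31 sites were spread as 7 at ERN1, 6 at CREB3L1, 5 at ATF6, 4 at EIF2AK3, 3 at PPP1R15A, 2 at ATF4 and 1 each at ERN2, ATF6B, XBP1 and DDIT3. Of these, 14 lay inside the span of the gene they were assigned to, and 13 had another coding gene nearer. H3K27ac lay within 1 kb of 21 of the 31 sites in all 4 H3K27ac libraries and of 5 sites in none.

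The highest-ranking FOS sites belonged to the windows of CREB3L1 and PPP1R15A. The strongest had folds of 23.2 and 28.1, at the 99.6 and 99.8 percentiles, 40241 bp upstream of CREB3L1 and inside the coding gene LOC124902669. Another, with folds of 13.3 and 17.0, lay 85888 bp downstream of the CREB3L1 5' end and inside DGKZ. Inside CREB3L1 itself, FOS sites at 17017 and 21538 bp from the 5' end had folds of 5.01 and 7.99, and of 7.54 and 10.8.
PPP1R15A carried 3 FOS sites within its 3638 bp. The site near its end, 3101 bp from the start, had folds of 12.4 and 18.5, at the 93.9 and 98.2 percentiles. The other 2 sites, at 2219 and 847 bp, had folds of 9.05 and 8.51, and of 5.99 and 9.08. The FOS peaks thus lay across the gene body rather than at the start alone.

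Among the sensors, EIF2AK3 had the highest-ranking intragenic FOS site, 28038 bp from its 5' end, with folds of 9.51 and 9.87 at the 86.8 and 86.5 percentiles. ERN1 had 5 such sites inside the gene and 2 over neighbouring ICAM2, the strongest at 34517 bp with folds of 6.72 and 7.01. The strongest FOS site of ATF6 lay 29476 bp upstream, with folds of 8.06 and 5.96. At the other sensor genes the shared FOS sites lay in neighbours, inside TNXB for ATF6B (5.92 and 5.63) and inside DCTN5 for ERN2 (6.47 and 7.89). Among the effectors, FOS sites sat next to the starts of ATF4 (676 bp upstream, 5.74 and 5.20) and DDIT3 (66 bp upstream, 5.07 and 4.51). The FOS site of XBP1 lay inside CCDC117 with folds of 6.05 and 6.31. These start-proximal FOS folds ranked between the 33.6 and 56.4 percentiles of their lists, near the middle.

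H3K27ac was present at the 5' ends of all member spans with a strand in the promoter annotation used, which lacked ERN2. This held in every library, except that CREB3L1 had none in replicate 2 of the knockout clone. PPP1R15A had the strongest start, with top H3K27ac folds of 39.6 and 31.0 in the knockout clone, against 33.9 and 42.2 in the control clone. All 4 values stood above the 99.9 percentile of their lists, and the clones overlapped. ATF4 was covered over all 2000 bp around its start in both knockout libraries, against 1929 and 1893 bp in the control clone. XBP1 was covered over 1737 and 1900 bp in the knockout clone, against 1836 and 1852 bp in the control clone, and DDIT3 over 1784 and 1765 bp, against 1706 and 1786 bp. The 5' ends of ERN1, ATF6, ATF6B and EIF2AK3 had 1189 to 1932 bp covered in any library. CREB3L1 stood apart at the 5' end of its span, with 497 and 0 bp in the knockout clone, against 161 and 203 bp in the control clone. Around its internal RefSeq start, 17497 bp inside the span, 788 and 714 bp were covered in the knockout clone, against 1674 and 1503 bp in the control clone. Which start these cells use is not known from the data. The bases around the internal start are part of the CREB3L1 span coverage given further on, and not a separate result. The higher-coordinate end of ERN2 had 284 and 1038 bp in the knockout clone, against 603 and 730 bp in the control clone, and its other end had none in any library.

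Over the extended windows, the length covered by H3K27ac peaks was compared between the clones with limma across 16703 genes that had a mean of at least 1000 bp covered. None of the 10 genes was called at an adjusted p of 0.05, and none of the 16703 genes was (0.0%). At an unadjusted p under 0.05 there were 1081 genes (6.47%) and again none of the 10. An exact permutation test of 2 libraries against 2 cannot give a two-sided p below 0.333. The differences of the 10 genes had a median of 0.01 on the log2 scale, beside -0.05 for all genes tested, with 5 above 0 and 5 below. In the control clone the median share of the window covered was 7.98% for the 10 genes, beside 5.27% for all genes tested.

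**Figure D3:**
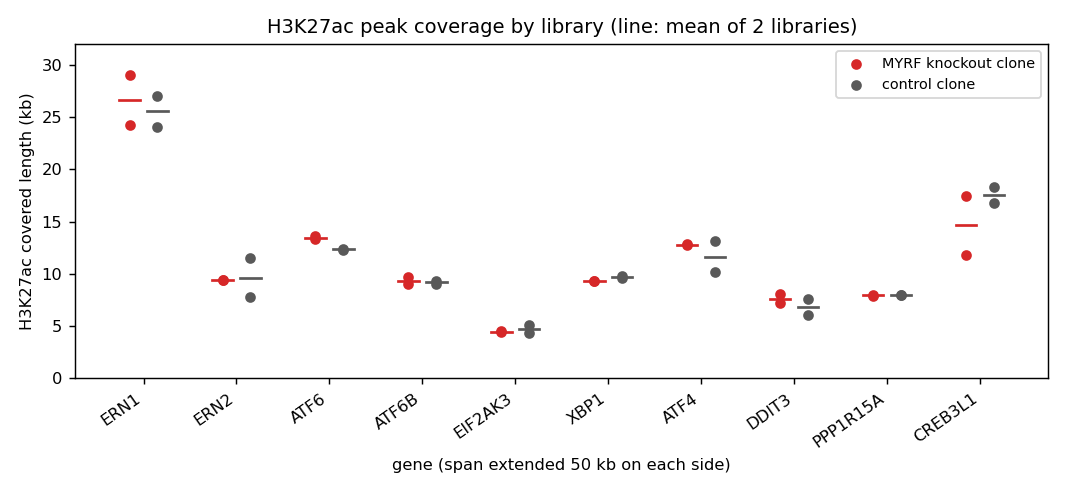
H3K27ac covered length in kb in the window of each gene, with 1 point per library and a line at the mean of 2 libraries, the knockout clone to the left of the control clone. The clones overlap at 8 genes, the knockout points lie above at ATF6 and below at XBP1.

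Among the sensors, ERN1 had the longest coverage, with 29032 and 24260 bp in the knockout clone, against 27065 and 24062 bp in the control clone. The difference was 0.05 on the log2 scale (95% interval -0.27 to 0.38, limma adjusted p = 0.97). EIF2AK3 had the shortest, with 4528 and 4406 bp in the knockout clone, against 5057 and 4300 bp in the control clone (log2 difference -0.05, adjusted p = 0.972). In both genes the clones overlapped. ERN2 had 9450 and 9378 bp in the knockout clone, against 7783 and 11497 bp in the control clone, so the control libraries enclosed the knockout ones. ATF6B had 9705 and 9014 bp, against 9002 and 9353 bp, which also overlapped. ATF6 had 13583 and 13326 bp in the knockout clone, against 12359 and 12324 bp in the control clone, and here both knockout libraries lay above both control libraries. The ATF6 difference was 0.12 on the log2 scale (95% interval -0.13 to 0.36, limma adjusted p = 0.885). In the ATF6 span alone, a choice made after seeing the data, the order was reversed. There 2036 and 2853 bp were covered in the knockout clone, against 3818 and 2901 bp in the control clone.

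Among the effectors, XBP1 had 9320 and 9306 bp in the knockout clone, against 9561 and 9788 bp in the control clone. Both knockout libraries lay below both control libraries, by a log2 difference of -0.05 (95% interval -0.31 to 0.21, limma adjusted p = 0.962). In the XBP1 span alone the order was reversed, with 2113 and 2254 bp in the knockout clone, against 1663 and 2109 bp in the control clone. PPP1R15A had 7987 and 7867 bp, against 7999 and 7946 bp in the control clone, the closest match of the effectors. ATF4 had 12740 and 12848 bp in the knockout clone, against 10146 and 13110 bp in the control clone. DDIT3 had 7179 and 8067 bp, against 7572 and 6066 bp in the control clone. Both genes overlapped between the clones, with log2 differences of 0.14 and 0.15. Without replicate 1 of the control clone the ATF4 difference was -0.033, and without replicate 2 the DDIT3 difference was 0.0066. CREB3L1 had 17494 and 11780 bp in the knockout clone, against 18274 and 16792 bp in the control clone, the largest difference of the 10 genes at -0.27 (95% interval -0.77 to 0.23, limma adjusted p = 0.867). That value rested on replicate 2 of the knockout clone, without which it was -0.0019. The knockout clone thus lay wholly below the control clone at 1 of 10 genes (XBP1), beside 26.0% of all genes tested, and wholly above it at 1 (ATF6), beside 9.63%. After scaling to the covered length of each library, these shares of all genes became 11.2% and 21.1%, and 0 and 4 of the 10 genes.

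**Figure D4:**
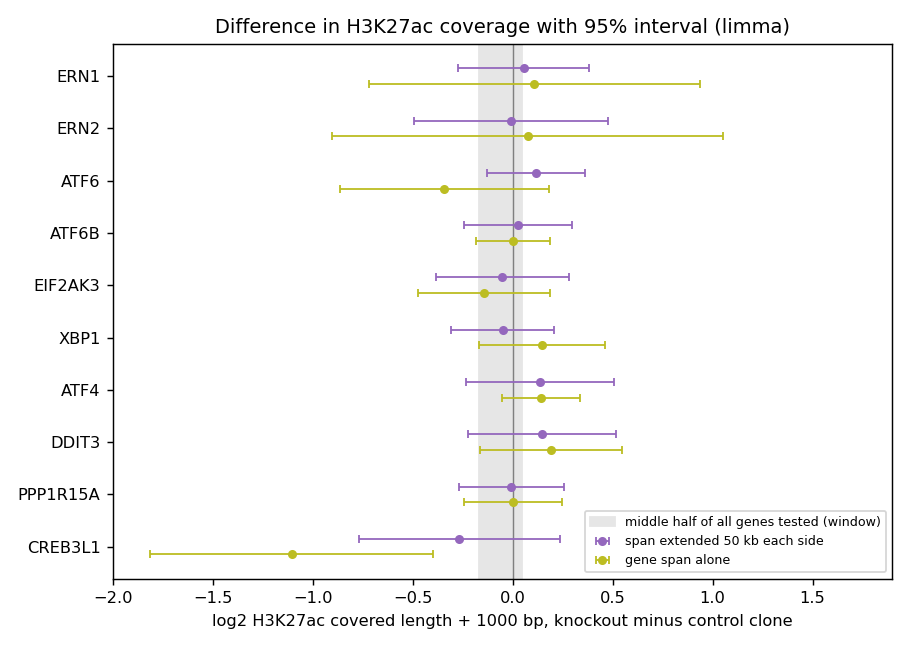
Difference in H3K27ac covered length between the knockout clone and the control clone on a log2 scale, with limma 95% intervals, for the extended window and for the gene span alone, beside the range between the quartiles of all genes. The intervals include 0 except that of the CREB3L1 span, at -1.11.

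Within the gene span alone, a choice made after seeing the data, CREB3L1 had 1611 and 714 bp of H3K27ac in the knockout clone, against 3966 and 3183 bp in the control clone. Both knockout libraries lay below both control libraries, and the log2 difference was -1.11 (95% interval -1.81 to -0.40). The limma p was 0.0126 unadjusted and 0.775 after adjustment over 10110 genes, so the gene was not called. An unadjusted p under 0.05 was found for 1 of the 10 genes, beside 6.32% of all genes tested in this way. The knockout clone lay wholly below the control clone at 2 (ATF6 and CREB3L1), beside 24.6%, and wholly above it at 3 (XBP1, ATF4 and DDIT3), beside 11.4%. The CREB3L1 difference was -1.03 after scaling to each library's covered length, and it ranged from -1.41 to -0.80 when each library was left out in turn, with unadjusted p from 0.00513 to 0.0697. In a bulk precipitation, fewer cells that carry a mark and less of it per cell cannot be told apart.

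Coverage was lower around 2 of the 3 FOS sites inside CREB3L1, those called in both FOS libraries. The bases around these sites are part of the span coverage given above, so they are not separate support for that difference. Around the FOS site at 17017 bp, 788 and 714 of 2000 bp were covered in the knockout clone, against 1883 and 1700 bp in the control clone. Around the FOS site at 21538 bp the values were 335 and 0 bp in the knockout clone, against 766 and 637 bp in the control clone. Both knockout libraries lay below both control libraries at these sites. Around the FOS site at 32130 bp, called in FOS replicate 2 alone, 273 and 0 bp were covered in the knockout clone, against 0 and 0 bp in the control clone. The internal RefSeq start lies within the same region as the FOS site at 17017 bp. Over the 31 FOS sites of all 10 windows that both FOS libraries shared, the knockout clone lay wholly below the control clone at 4 and wholly above it at 5. Another 5 of the 31 had no H3K27ac within 1 kb in any library and could fall on neither side. The share over all FOS sites in the genome was not computed, so no result is read from these counts. The region over the first FOS site was called in all 4 libraries, with top folds of 7.25 and 5.02 in the knockout clone, against 11.3 and 12.4 in the control clone. No MYRF peak of either line lay inside CREB3L1, and FOS was not mapped in the knockout clone.

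H3K27ac peaks of the 4 libraries merged into 144 regions over the 10 windows, and 64 of them were present in every library. Regions present in both control libraries and neither knockout library numbered 6 (4.17%), beside 3.51% of 134465 regions in the genome. The reverse pattern was seen in 4 regions (2.78%), beside 1.7%. Of the 6 lost regions, 3 lay inside CREB3L1, at 14221, 18745 and 22442 bp from its 5' end, with weak folds of 3.41 to 5.36 in the control clone. These 3 regions are part of the same CREB3L1 span coverage and not a separate result. The other lost regions lay inside ERN1, ATF6 and EIF2AK3, and that of EIF2AK3 overlapped a FOS peak in both FOS libraries. The EIF2AK3 region had weak folds of 3.35 and 3.05 in the control clone. Around that FOS site, 280 and 0 of 2000 bp were covered in the knockout clone, against 604 and 217 bp in the control clone, and the clones overlapped. The gained regions lay in TEX2 near ERN1, upstream of ATF6, in TNXB near ATF6B and inside XBP1, and that in TNXB overlapped FOS peaks in both libraries. No lost or gained region overlapped a MYRF peak, the ERN2 site included. Few of the 144 regions overlapped a MYRF peak at all, so no result is read from this.

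Of 43 other genes of the response, in 5 lists, 8 (18.6%) had a MYRF peak in both CFPAC1 libraries, 12 (27.9%) in both HPAF2 libraries and 39 (90.7%) a FOS peak in both libraries, beside 18.5%, 17.6% and 68.7% of all coding genes. No result is read from these counts or from those of the single lists, which rest on 6 to 12 genes each. None of the 43 was called by limma in either direction, none had an unadjusted p under 0.05, and their median log2 difference was -0.01. The highest-ranking MYRF site was in the window of MBTPS2, the site-2 protease that frees ATF6 and its relatives. Its folds were 27.3 and 23.4 in CFPAC1, and 8.59 and 10.2 in HPAF2, at a distance of 40655 bp from the gene. Among 6 genes of the CREB3 family and the ATF6 proteases, 2 had MYRF peaks in CFPAC1 and 3 in HPAF2, the others being CREB3L4 and, in HPAF2 only, CREB3. The CREB3L4 peak was nearer to SLC39A1 and the CREB3 peak nearer to TLN1.

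The PERK and eIF2alpha list had 2 of 7 genes with MYRF peaks in CFPAC1 and 2 of 7 in HPAF2. EIF2AK4, the eIF2alpha kinase that responds to amino acid shortage, had folds of 15.1 and 14.0 in CFPAC1, and 6.61 and 7.07 in HPAF2, at a peak nearer to BMF. EIF2S1, which encodes eIF2alpha, had an intragenic peak in CFPAC1, with folds of 4.60 and 4.47. PPP1R15B, the constitutive counterpart of PPP1R15A, had folds of 7.73 and 7.50 in HPAF2, at a peak nearer to PLEKHA6. Of 11 targets of ATF4 and CHOP, 2 in CFPAC1 and 4 in HPAF2 had MYRF peaks in both libraries. DDIT4, an inhibitor of mTORC1 signalling, had the highest of these, with folds of 9.24 and 11.3 in CFPAC1, and 4.62 and 5.35 in HPAF2. TRIB3, a pseudokinase induced by CHOP, had folds of 7.16 and 7.36 in HPAF2. CEBPB, with a peak nearer to PEDS1, and ERO1A completed the list. Of 12 targets of ATF6 and XBP1, 2 had MYRF peaks in either line. They were the ER chaperone genes HYOU1 (6.90 and 6.43 in CFPAC1, 6.70 and 4.75 in HPAF2) and HSP90B1 (5.58 and 6.22 in CFPAC1, 4.10 and 3.68 in HPAF2). The HYOU1 peak lay 44828 bp from the gene and nearer to DPAGT1. The HSP90B1 peak was intragenic, and its HPAF2 folds stood at the 19.7 and 9.57 percentiles of their lists. Of 7 IRE1 partners and outputs, MAP3K5 (4.17 and 5.47 in HPAF2) was the 1 gene with a MYRF peak in both libraries of a line.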

How the data were processed

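ChIP-seq peak lists of 10 libraries (2 for MYRF in each line, 2 for FOS in the control clone of CFPAC1 and 2 for H3K27ac in each CFPAC1 clone) were analysed; an HPAF2 input sample was not analysed here. The authors processed the reads, per the submitters' processing notes, with MACS2 2.1.0.20150731, Bowtie2 2.2.6, Trimmomatic 0.38 and SAMtools on build GRCh38. Each deposited list gives the authors' fold enrichment (a ratio) and the -log10 q of every peak; peaks were listed per library, and the control used for calling was not given in the sources used here. The deposited -log10 q values were used for 1 alternative only, with a minimum of 10. Since folds are scaled within a library, they were used to describe and rank peaks within a list, as the percentile of the list with a fold no higher.

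Members and gene lists were chosen with earlier results of these data known. Named pathway genes had a MYRF peak in both libraries of at least 1 line, at most 6 per list. Sites merged peaks sharing at least 1 bp. Covered length of separately called peaks moves with how much was called. Its log2 with a pseudocount of 1000 bp was fitted by limma 3.58.1 (trend, Benjamini-Hochberg adjustment over all genes tested, threshold 0.05) in R 4.3.3, on the 4 H3K27ac libraries without a block. Differences understate changes at short coverage. Other steps used Python 3.11.15, numpy 2.4.6, pandas 2.3.3 and matplotlib 3.10.9. Promoters came from RefSeq (GRCh38.p14) and strands with them. Alternatives covered window, assignment, -log10 q, pseudocount, filter, scaling, block and left-out libraries.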

Additional observations from a re-analysis of the deposited data

How the results depend on the processing

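Depth is unknown, so an uncalled peak is not absence of binding, and groups of 2 allow no outlier check. Of 130 values of single genes under alternatives, 105 kept their direction and 25 took the other, the largest of these 0.34 in size on the log2 scale. The filter and block alternatives cannot change a gene's log2 difference, so their values among the 105 were fixed in advance. In the fits with 2 libraries per group, 0 values passed an adjusted p of 0.05. The count of genes with MYRF peaks in both CFPAC1 libraries was 1 (ERN2) with a 10 kb window (9.07% of all genes) and with nearest-gene assignment (8.51%). It was also 1 with a -log10 q of at least 10 (7.74%) and with the same site in both libraries (16.6%). The FOS count was 6 with a -log10 q of at least 10 (44.4%). With no filter on covered length limma called 12 genes of all tested, and none of the 10. Genes with the knockout clone wholly below the control clone numbered 3 with a 10 kb window (25.6% of all genes) and 3 with a -log10 q of at least 10 (28.3%), 2 in the span alone (24.6%), 0 after scaling (11.2%), and 1 to 4 with a library left out (42.7% to 47.4%). Genes wholly above numbered 3 in the span alone (11.4%), 4 after scaling (21.1%), 5 in the scaled span (23.4%), and 2 to 4 with a library left out (22.2% to 27.9%).

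With a 10 kb window the log2 difference was 0.076 in ERN2, -0.17 in ATF6, -0.011 in ATF6B and 0.053 in XBP1. With a -log10 q of at least 10 it was -0.022 in ERN1, -0.051 in ATF6 and -0.045 in ATF6B. Values that kept their direction but grew were XBP1 at the stricter q (-0.39, limma adjusted p = 0.71, with 0.0335 before adjustment) and CREB3L1 with the shorter window (-0.76, limma adjusted p = 0.813, with 0.0526 before adjustment), among others. In the span alone it was 0.075 in ERN2, -0.34 in ATF6 and 0.15 in XBP1, and in the scaled span 0.16, -0.26 and 0.22, with 0.090 in PPP1R15A. After scaling to library totals, which moved the median of all genes from -0.05 to 0.05, it was 0.094 in ERN2, 0.043 in EIF2AK3, 0.054 in XBP1 and 0.094 in PPP1R15A. The cause of these changes was not tested. With a library left out the difference ranged from -0.070 to 0.18 in ERN1, -0.26 to 0.25 in ERN2, -0.023 to 0.073 in ATF6B, -0.15 to 0.045 in EIF2AK3, -0.033 to 0.31 in ATF4, 0.0066 to 0.29 in DDIT3, -0.017 to 0.0023 in PPP1R15A and -0.54 to -0.0019 in CREB3L1. The differences between replicates 1 and 2 had a correlation of -0.21 over genes between the clones. This was computed without scaling to library totals, so it cannot settle whether same-numbered libraries belong together. With the replicate number as a block, limma called 0 genes (790 at an unadjusted p under 0.05), and with crossed numbers 0 (1512).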
